A study of Mus musculus with 40 samples.

Results

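Mouse iTregs that were restimulated through CD3 and CD28 in the presence of cyclosporin A (CsA) were compared by RNA-seq with iTregs restimulated without inhibitor, 3 libraries against 3. These 6 libraries, of the 40 samples and 24 RNA-seq libraries of the series, were taken by their sample titles. In every group naive CD4+ T cells of 6-week-old Foxp3 reporter mice had been sorted and induced to iTregs over 4 days, with 0.5 µg/ml plate-bound anti-CD3, 1 µg/ml anti-CD28, 2 ng/ml human TGF-β and recombinant human IL-2. The iTregs were then sorted by the Foxp3 reporter and rested for 1 day. Resting iTregs (3 libraries) were taken after that rest. The titles name the restimulated groups as restimulated iTregs, iTregs with CsA and iTregs with an ORAI inhibitor (3 libraries), which is taken here as CM-4620, the inhibitor that the study used beside CsA. The cell type field of the CsA libraries reads Treg and not iTreg, and the titles were followed. The dose of CsA and the length of restimulation of these libraries are not given in the sources used here. Nothing in the labels says that libraries of one group came from separate mice or cultures, so that p-values measure the spread between these libraries, which may be technical.

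CsA is a cyclic peptide that binds cyclophilins, and the complex blocks calcineurin, a Ca2+ and calmodulin dependent phosphatase. After TCR ligation, Ca2+ released from the endoplasmic reticulum and then let in by store-operated calcium entry (SOCE) activates calcineurin, which dephosphorylates NFAT so that it enters the nucleus. NFAT binds DNA with a GGAAA core, often beside AP-1 (dimers of Fos and Jun proteins), at cytokine and activation genes, and in Tregs it also acts together with Foxp3. The question of the comparison was which transcripts of restimulated iTregs depend on calcineurin, the step that CsA blocks, and CM-4620 acts one step upstream, on the SOCE channel.

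The 6 libraries held from 9808711 to 13827662 reads on genes, and a count of 3 reads was worth from 2.40 to 3.36 normalized counts, the unit of all levels below (gene reads over the size factor of the library, with no correction for gene length, so that libraries can be compared and genes cannot). All 8 markers of CD4 T cells were tested and none was called, with summed levels of 39304 to 41620 in restimulated and 40660 to 42111 in CsA libraries. Of 8 B cell, 10 myeloid and 8 dendritic cell markers, 2, 1 and 3 were high enough to be tested, as were 2 of 2 CD8 T cell and 1 of 8 erythroid and platelet markers, and none of these was called. Of 7 NK cell markers 2 were tested, 1 was called higher, and both lay higher with CsA without overlap. The list summed to between 124 and 163 in restimulated and between 215 and 247 in CsA libraries. *Ncr1*, *Klrb1c*, *Klra8* and *Klra4* were at 0 in all 12 iTreg libraries. The summed levels in restimulated and CsA libraries were 526 to 551 and 402 to 472 for dendritic cell markers (*Clec9a* and *Siglech* at 0 in all 12), 115 to 126 and 69.6 to 114 for B cell markers (*Ms4a1* and *Pax5* at 0) and 30.9 to 45.3 and 26.4 to 45.0 for myeloid markers (*S100a8*, *S100a9* and *Mpo* at 0). Cells had been sorted as naive CD4+ T cells and then by the Foxp3 reporter. The part of other cell types in the results below was not tested. Transcripts of the mitochondrial genome took 1.81 to 1.91% of the signal in restimulated and 1.56 to 1.92% in CsA libraries. In bulk RNA a lower level can mean fewer cells that carry a transcript or less of it per cell, and these cannot be told apart.

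CsA changed a small part of the transcriptome of restimulated iTregs by more than the size threshold used here. Of 11105 genes tested, 372 (3.35%) passed an adjusted p below 0.05 with an absolute log2 fold change above 0.5 (limma, with Benjamini-Hochberg adjustment over all genes tested), and these are the genes said to rise, fall or be called below. With CsA 199 genes (1.79%) were higher and 173 (1.56%) lower. The median log2 fold change over all genes was -0.0031 and the median size of a change was 0.13, against 0.72 among the called genes, of which 48 were higher and 42 lower by more than 1 on the log2 scale. The libraries of both groups did not overlap for 362 of the 372 called genes. Over all genes tested, the 3 CsA libraries lay above the 3 restimulated libraries for 14.0% and below them for 14.9%. On the plot of all genes the called genes lie on both sides of 0 over the whole range of levels.

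**Figure D1:**
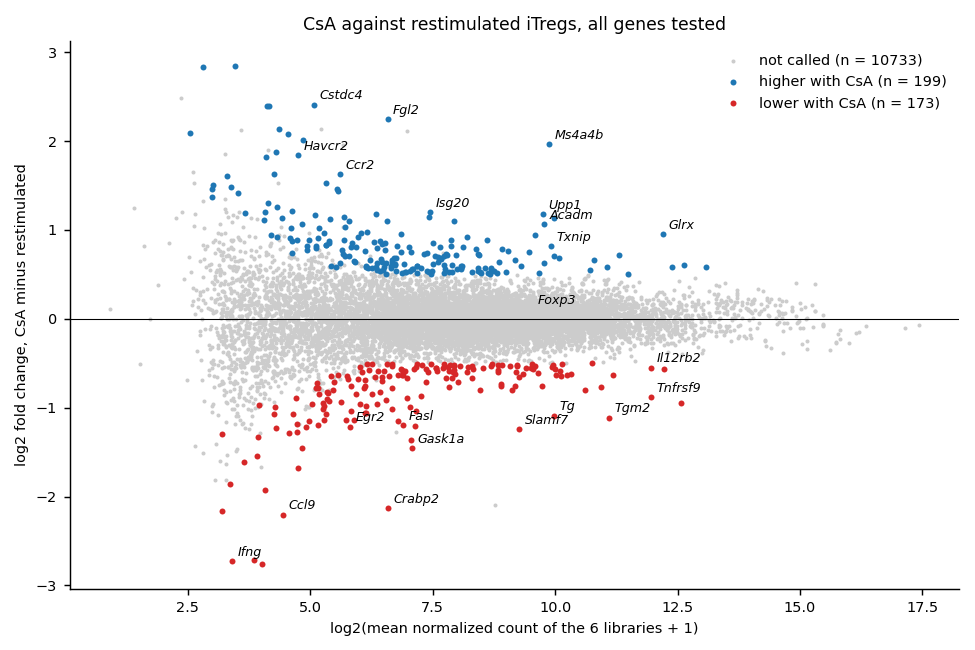
Log2 fold change between CsA-treated and restimulated iTregs (vertical axis) against the log2 of the mean normalized count plus 1 over the 6 libraries (horizontal axis) for the 11105 genes tested, 1 point per gene. Genes called higher (199, blue) and lower (173, red) lie at all levels, and *Foxp3* lies near 0 among the genes that were not called (grey).

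The genes of the blocked pathway gave 1 call. Of 22 listed genes of calcineurin and NFAT 19 were tested. Of these 1 rose (5.26%, beside 1.79% of all genes) and 0 fell, with a median log2 fold change of -0.08. *Ppp3ca*, a catalytic subunit of calcineurin, stood at 113, 121 and 92.6 normalized counts in the restimulated and at 167, 177 and 139.9 in the CsA libraries. The CsA libraries lay higher without overlap, and the rise was 0.56 ± 0.15 on the log2 scale (± SE, adjusted p = 0.0187). This call was lost without CsA replicate 1 or 2 or restimulated replicate 1 or 3 (log2 from 0.49, adjusted p up to 0.0993). *Ppp3cc*, another catalytic subunit, had a log2 difference of -0.35 (adjusted p = 0.0281), which is under the size threshold, and *Ppp3cb* had -0.09 (adjusted p = 0.596). No NFAT gene was called. *Nfatc1* was at 612 ± 54.7 without and 642 ± 28.1 with CsA (SD, n = 3) and *Nfatc2* at 806 ± 25.6 and 814 ± 32.2, with 95% confidence intervals of the log2 difference from -0.09 to 0.23 and from -0.13 to 0.16. *Rcan1*, which encodes a calcineurin inhibitor and is known as a target of NFAT, was low in every library, at 27.2, 35.9 and 26.3 without and 31.7, 32.8 and 30.4 with CsA, an interval of -0.39 to 0.59. Its restimulated libraries had not passed the test against resting ones either (log2 0.17, adjusted p = 0.609).

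Of 16 cyclophilin genes tested, which encode the family that CsA binds, and of 12 genes of other calcineurin substrates none was called. *Ppia*, cyclophilin A, stood at 44738 ± 3244 and 46183 ± 3701 normalized counts, a log2 difference of 0.05 (adjusted p = 0.808). None of 23 genes of SOCE and Ca2+ handling was called either, and the median of the list was 0.05. *Stim1*, the Ca2+ sensor of the endoplasmic reticulum, was at 678 ± 19.0 and 632 ± 26.3, and *Orai1*, the pore of the channel, at 111 ± 16.7 and 114 ± 13.5. *Orai2*, another channel subunit, was at 337, 378 and 318 in restimulated and 491, 499 and 430.2 in CsA libraries, with resting iTregs at 580.0 ± 36.3. Its log2 difference of 0.46 ± 0.07 (adjusted p = 0.000445) stayed under the size threshold. The list's largest log2 difference, 0.75 ± 0.34 (adjusted p = 0.177), was that of *Kcna3*, a voltage-gated potassium channel at low levels, with overlapping libraries at 15.1, 6.72 and 12.7 without and 11.2, 19.5 and 31.2 with CsA. In the list of TCR proximal signalling, 24 genes were tested and none was called, with *Zap70*, the kinase recruited to the receptor, at 2804 ± 42.6 and 2649 ± 85.9. None of 22 NF-κB genes was called either, with *Nfkb1* at 1415 ± 63.9 and 1409 ± 19.6. Over all genes tested 3.35% were called. A gene that misses the threshold is not shown to be equal, and the intervals given are the limits on its difference.

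Several transcription factors induced by the TCR were lower with CsA. Of 18 tested 6 fell (33.3%, beside 1.56% of all genes) and 0 rose, with a median log2 fold change of -0.26 against -0.0031 over all genes. *Egr2*, a zinc finger factor downstream of NFAT, was at 75.5, 91.9 and 61.8 in the restimulated and 44.0, 36.9 and 20.0 in the CsA libraries, and all CsA libraries lay below all restimulated ones. It fell by 1.21 ± 0.21 on the log2 scale (adjusted p = 0.000956) to a mean of 33.6, with the resting libraries at 45.3, 65.6 and 50.8. The orphan nuclear receptor *Nr4a2* was at 81.6, 84.0 and 77.2 without and 32.7, 33.9 and 43.2 with CsA, a change of -1.13 ± 0.23 (adjusted p = 0.00425). *Nr4a3*, of the same family, went from 50.6 ± 5.43 to 24.5 ± 2.80 (log2 -1.01, adjusted p = 0.0262). The third member, *Nr4a1*, was at 66.5, 71.7 and 62.7 without and 63.4, 60.6 and 64.0 with CsA, so that its libraries overlapped (log2 -0.09, adjusted p = 0.811). Its CM-4620 libraries were at 46.9, 25.5 and 43.9, and the difference between the inhibitors was not called (log2 0.72, adjusted p = 0.0837).

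*Irf4*, which drives effector programs and is needed by effector Tregs as well, had the highest counts of the factors that fell. Its libraries were at 5893, 5634 and 5622 without and 3997, 3738 and 3836 with CsA, groups that were tight and separate, with a log2 fold change of -0.57 ± 0.07 (adjusted p = 3.76e-05). Resting iTregs were at 3248 ± 400.5. *Ikzf3* (Aiolos) fell by 0.76 ± 0.06 from 1069 ± 48.9 to 630.5 ± 16.9 (adjusted p = 1.12e-06), beside 655 ± 26.9 in resting iTregs. *Zeb2* fell by 0.78 ± 0.14 from 127 ± 13.7 to 73.8 ± 12.4 (adjusted p = 0.00170). Members with a smaller difference were *Nfil3* (log2 -0.37, adjusted p = 0.00903), *Hif1a* (-0.37, 0.00539) and *Bhlhe40* (-0.24, 0.0164), none of which reached the size threshold. Libraries of *Hif1a* and *Bhlhe40* overlapped, and without replicate number their adjusted p was 0.258 and 0.0723. *Maf* lay the other way, at 929 ± 78.5 and 1158 ± 63.2, without overlap and under the size threshold (log2 0.32, adjusted p = 0.0152). *Myc* stood at 5979 ± 266 and 5536 ± 189 (adjusted p = 0.134), and *Egr1* at 23.2 ± 2.73 and 23.2 ± 2.98 (adjusted p = 0.995). The call of *Nr4a2* was lost without CsA replicate 2 (log2 -0.91, adjusted p = 0.0511), and that of *Nr4a3* without any 1 of the 6 libraries (log2 -1.15 to -0.92, adjusted p up to 0.130).

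The AP-1 genes, which encode the usual partners of NFAT on DNA, split. Of 13 tested 2 rose and 2 fell (15.4% each, beside 1.79% and 1.56% of all genes). *Atf3* stood at 652, 710.5 and 749 normalized counts in restimulated and 395, 403 and 408 in CsA libraries, without overlap, and fell by 0.80 ± 0.08 (adjusted p = 4.88e-06). *Fosl2* fell by 0.54 ± 0.09 (adjusted p = 0.00130) from 489.9 ± 43.0 to 337 ± 17.6. *Fos* moved the other way, from 15.1, 19.1 and 18.2 to 38.8, 35.9 and 37.6, with resting iTregs at 51.6, 44.4 and 46.3, a rise of 1.07 ± 0.22 (adjusted p = 0.00358) that placed the CsA libraries above the restimulated ones. *Jund* rose by 0.62 ± 0.14 (adjusted p = 0.00911), to 143 ± 9.37, and 52.6% of its exon bases are shared with another annotated gene, whose reads these unstranded libraries cannot tell apart. *Jun* had a log2 difference of 0.34 (adjusted p = 0.0113) and *Junb* of -0.08 (adjusted p = 0.405), and *Batf*, at 727 ± 54.2 and 719 ± 21.8, of -0.01. The call of *Fosl2* was lost on size without CsA replicate 1 (log2 -0.43) or restimulated replicate 3 (-0.47), and that of *Jund* without CsA replicate 3 (adjusted p = 0.0575) or restimulated replicate 1 (0.0744).

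Genes of T helper cytokines and their ligand families were lower with CsA where they were called, with one exception. Of 22 tested 5 fell (22.7%, beside 1.56% of all genes) and 1 rose (4.55%, beside 1.79%), while the median of the list was 0.09. By the adjusted p alone 6 were lower and 5 higher, where 6.21% of all genes were lower and 5.82% higher. *Fasl*, the ligand of the death receptor Fas, was at 168, 151 and 173 in restimulated and 88.9, 60.6 and 66.4 in CsA libraries, and resting iTregs were at 32.7, 43.4 and 60.7. The groups with and without CsA did not overlap and *Fasl* fell by 1.19 ± 0.20 (adjusted p = 0.000694). *Il24*, a cytokine of the IL-10 family, fell from 2835 ± 205 to 1828 ± 90.5 (log2 -0.63 ± 0.07, adjusted p = 3.29e-05), which left it above the resting 618 ± 49.0. *Tnfsf14* (LIGHT) fell by 0.66 ± 0.12 from 153 ± 13.6 to 96.4 ± 9.40 (adjusted p = 0.00201).

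*Ifng*, the cytokine of Th1 cells, was scarce in these iTregs. Its restimulated libraries held 13.1, 19.1 and 18.2 normalized counts and its CsA libraries 2.04, 5.13 and 0, of which the first and the last are under the worth of 3 reads, and the test gave an adjusted p of 0.0120. The groups did not overlap, but no size is given because 2 of the 3 CsA libraries were under that floor, and 25.9% of its exon bases are shared with another annotated gene. *Il9* was at 38.3, 32.5 and 28.2 without and 14.3, 17.4 and 13.6 with CsA, a log2 fold change of -1.07 ± 0.32 (adjusted p = 0.0353). *Tnfsf4* (OX40 ligand) was the member that rose, from 113, 76.2 and 107 to 115, 153 and 159 (log2 0.53 ± 0.16, adjusted p = 0.0358). *Il21*, a cytokine of follicular helper cells, was at 936, 893 and 1084 without and 687, 808 and 771 with CsA, beside 242 ± 19.5 at rest. All its CsA libraries lay below the restimulated ones, and its log2 difference of -0.36 ± 0.07 (adjusted p = 0.00400) was under the size threshold.

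Other members of the list gave no call. *Il10* was at 186, 139 and 148 without and 113, 138 and 103 with CsA (log2 -0.41, adjusted p = 0.107), *Il4* at 27.0 ± 3.33 and 32.5 ± 4.10 (log2 0.26, adjusted p = 0.547), *Lta*, which encodes lymphotoxin alpha, at 3919 ± 87.2 and 3700.1 ± 82.1 (adjusted p = 0.363) and *Tnf* at 429 ± 24.4 and 544 ± 12.5 (log2 0.34, adjusted p = 0.00441). *Osm* stood at 607 ± 40.9 without and 821 ± 72.1 with CsA (log2 0.43, adjusted p = 0.000998). *Tnfsf8* stood at 1186 ± 45.5 and 1465 ± 36.2 (log2 0.30, adjusted p = 0.00531). In both genes the CsA libraries lay higher without overlap, by less than the size threshold. Leaving out single libraries ended calls of low members. That of *Ifng* was lost without CsA replicate 3 or any 1 restimulated replicate (adjusted p of 0.0506 to 0.0835), that of *Il9* without any 1 of the 6 libraries (log2 -1.17 to -0.96, adjusted p up to 0.142), and that of *Tnfsf4* without CsA replicate 2 or 3 or restimulated replicate 2 or 3 (log2 from 0.30, adjusted p up to 0.259) and in the fit without replicate number (adjusted p = 0.0543). Of 4 chemokines tested *Ccl9*, which attracts myeloid cells, fell, with 23.2, 45.9 and 36.3 in restimulated and 6.13, 7.18 and 6.40 in CsA libraries (log2 -2.21 ± 0.39, adjusted p = 0.00121). *Ccl20* rose from 167 ± 14.0 to 255 ± 33.7 (log2 0.61 ± 0.13, adjusted p = 0.00615), a call lost without CsA replicate 2 (log2 0.45, adjusted p = 0.0717).

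Of 22 lineage factors and receptors of helper T cells tested 3 fell (13.6%, beside 1.56% of all genes) and 0 rose, with a median log2 fold change of -0.07. *Tbx21*, which encodes the Th1 factor T-bet, was at 175, 226 and 123 in restimulated and 84.8, 105 and 68.0 in CsA libraries, and at 83.3, 98.9 and 54.6 at rest. Both groups varied by library number in the same order and did not overlap, and the log2 fold change was -0.995 ± 0.19 (adjusted p = 0.00255). In the fit without replicate number the same gene gave -0.995 with an adjusted p of 0.0897, and was not called. *Il12rb2*, the IL-12 receptor chain that Th1 cells carry, went from 4260.4, 4793 and 5176 to 3073, 3149 and 3466, a log2 fold change of -0.55 ± 0.06 (adjusted p = 7.69e-06) that left it above the resting mean of 806. It shares 40.0% of its exon bases with *Serbp1*. *Ahr*, the aryl hydrocarbon receptor, fell by 0.92 ± 0.21 from 54.1 ± 12.02 to 27.6 ± 1.17 (adjusted p = 0.00899), a call lost without CsA replicate 3 (adjusted p = 0.0723) or restimulated replicate 3 (0.0623).

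Cytotoxic effectors moved both ways, 2 of 11 higher and 2 lower (18.2% each, beside 1.79% and 1.56% of all genes). *Gzma* (granzyme A) was at 2057, 2035 and 1995 without and 1459, 1438 and 1401 with CsA, groups that did not overlap, with resting iTregs at 788 ± 23.4. Its log2 fold change of -0.50 ± 0.05 (adjusted p = 1.00e-05) was at the size threshold, so that the call was lost under other size factors, under quantile normalization and without CsA replicate 3 or restimulated replicate 2 (log2 -0.50). *Nkg7* fell by 0.52 ± 0.10 (adjusted p = 0.00208), and its size fell under the threshold without CsA replicate 2 or 3 or restimulated replicate 1 (log2 to -0.43). *Gzmc* (granzyme C) rose by 0.91 ± 0.28 from 15.4 ± 2.38 to 30.6 ± 8.95 (adjusted p = 0.0409), which was lost without any 1 library but CsA replicate 2 (adjusted p up to 0.204). The protease inhibitor *Serpinb1a* rose by 0.91 ± 0.22 from 24.3 ± 7.28 to 45.2 ± 2.51 (adjusted p = 0.0117), which was lost without CsA replicate 2 (adjusted p = 0.0824) or restimulated replicate 2 (0.0887). The NK marker sums given above were also higher with CsA, and their part in these results was not tested. *Jak2* was the single call of 21 JAK, STAT and SOCS genes (4.76% lower, beside 1.56% of all genes). Its log2 fold change was -0.52 ± 0.10 (adjusted p = 0.00255), from 567 ± 37.6 to 396 ± 18.3. Its size was under the threshold without restimulated replicate 1 (-0.44) or CsA replicate 3 (-0.50 after rounding). *Stat2* (log2 -0.46, adjusted p = 0.000339), *Stat3* (-0.28, 0.00207) and *Runx3* (-0.31, 0.00469) had smaller differences in the same sign.

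Promoters of 8 genes are shown because these genes had some of the largest log2 fold changes with CsA in the groups above and below. For *Ifng*, at the floor with CsA, the size itself is not given. Each gene has a single start in the table. The letters are the 250 bases upstream of the RefSeq start (GRCm38.p6), read 5′ to 3′ on the strand of the gene, with matches to GGAAA on either strand (the NFAT core; TTTCC in the printed strand) and to the AP-1 motif TGANTCA in capitals. Lower with CsA were *Ifng* (chr10:118440796-118441045, plus strand), *Fasl* (chr1:161788496-161788745, minus), *Tbx21* (chr11:97115332-97115581, minus), *Slamf7* (chr1:171649000-171649249, minus) and *Ccl9* (chr11:83578637-83578886, minus). Higher were *Ms4a4b* (chr19:11443308-11443557, plus), *Fgl2* (chr5:21372423-21372672, plus) and *Havcr2* (chr11:46454681-46454930, plus).
Ifng: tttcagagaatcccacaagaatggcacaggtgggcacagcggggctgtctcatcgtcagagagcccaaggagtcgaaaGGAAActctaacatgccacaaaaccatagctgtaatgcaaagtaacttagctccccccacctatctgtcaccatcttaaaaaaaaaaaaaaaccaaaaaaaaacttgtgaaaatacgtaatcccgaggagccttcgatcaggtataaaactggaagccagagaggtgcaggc
Fasl: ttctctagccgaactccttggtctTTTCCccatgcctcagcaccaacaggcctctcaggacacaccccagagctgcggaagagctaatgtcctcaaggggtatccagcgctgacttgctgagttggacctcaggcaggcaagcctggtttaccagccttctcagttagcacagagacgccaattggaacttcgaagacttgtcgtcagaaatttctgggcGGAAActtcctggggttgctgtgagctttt
Tbx21: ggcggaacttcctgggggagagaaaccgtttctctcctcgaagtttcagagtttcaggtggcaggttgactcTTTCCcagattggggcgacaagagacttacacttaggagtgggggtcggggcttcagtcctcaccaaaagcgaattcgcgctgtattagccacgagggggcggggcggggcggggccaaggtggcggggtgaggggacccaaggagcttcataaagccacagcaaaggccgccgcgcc
Slamf7: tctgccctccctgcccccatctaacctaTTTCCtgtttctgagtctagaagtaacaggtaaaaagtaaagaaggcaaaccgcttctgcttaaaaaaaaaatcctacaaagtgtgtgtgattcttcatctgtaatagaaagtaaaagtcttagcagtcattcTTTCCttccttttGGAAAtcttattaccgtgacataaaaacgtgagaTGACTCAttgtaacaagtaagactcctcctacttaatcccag
Ccl9: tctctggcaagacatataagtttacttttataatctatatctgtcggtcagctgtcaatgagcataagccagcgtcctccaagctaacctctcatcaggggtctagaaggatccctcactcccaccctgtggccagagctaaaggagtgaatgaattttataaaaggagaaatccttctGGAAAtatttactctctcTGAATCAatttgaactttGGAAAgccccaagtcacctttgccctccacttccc
Ms4a4b: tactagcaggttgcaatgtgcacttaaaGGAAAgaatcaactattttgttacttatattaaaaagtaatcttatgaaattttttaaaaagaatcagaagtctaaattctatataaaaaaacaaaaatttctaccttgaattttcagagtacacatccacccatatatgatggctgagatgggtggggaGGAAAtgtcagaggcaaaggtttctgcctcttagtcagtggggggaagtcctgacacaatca
Fgl2: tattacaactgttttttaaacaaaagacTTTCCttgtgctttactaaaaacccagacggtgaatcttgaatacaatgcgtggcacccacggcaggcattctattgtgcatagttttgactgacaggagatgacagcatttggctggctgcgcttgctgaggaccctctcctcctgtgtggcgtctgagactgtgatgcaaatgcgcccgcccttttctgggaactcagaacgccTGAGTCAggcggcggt
Havcr2: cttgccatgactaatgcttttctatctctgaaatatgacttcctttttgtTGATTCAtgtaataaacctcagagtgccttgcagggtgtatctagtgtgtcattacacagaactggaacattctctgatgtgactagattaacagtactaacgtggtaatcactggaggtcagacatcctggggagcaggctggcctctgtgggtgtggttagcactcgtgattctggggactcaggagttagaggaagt

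GGAAA is short and was found in most promoters. *Slamf7* held 3 matches, *Fasl*, *Ccl9* and *Ms4a4b* 2 each, *Ifng*, *Tbx21* and *Fgl2* 1 each and *Havcr2* none. TGANTCA was found once in *Slamf7*, *Ccl9*, *Fgl2* and *Havcr2*. Over all 32851 windows of the table GGAAA was present in 55.6% and TGANTCA in 6.75%. Counted by gene, with any start of the gene, GGAAA was in the windows of 59.3% of the 8850 tested genes with a window, of 67.1% of 140 lowered genes and of 51.6% of 155 raised genes. TGANTCA was in 5.11% of the tested, 8.57% of the lowered (12 genes) and 16.8% of the raised genes (26 genes). The cAMP response element TGACGTCA was in none of the 8 windows and by gene in 3.07%, 0.714% and 2.58%. A match is only a run of letters in these windows, and distal elements were not searched.

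**Figure D2:**
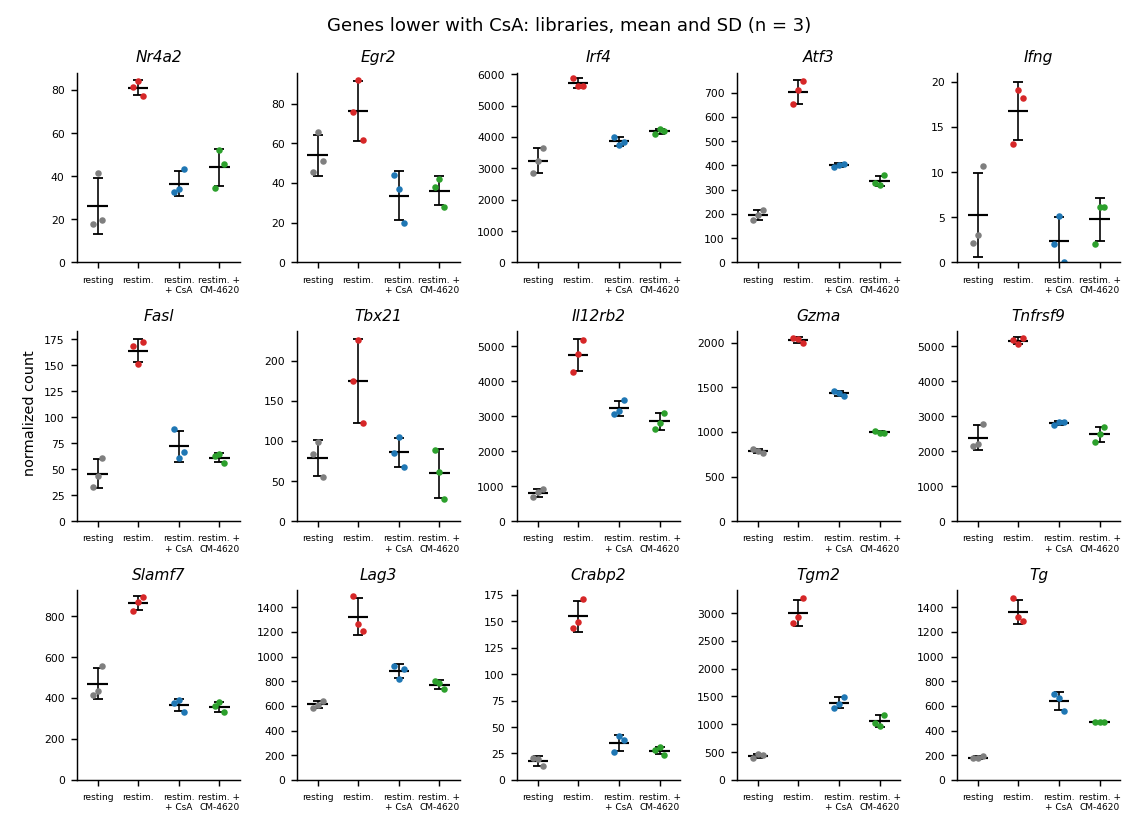
Normalized counts (vertical axes, from 0) of 15 genes that were lower with CsA, in resting, restimulated, CsA-treated and CM-4620-treated iTregs (3 libraries each, points), with the mean and SD as bars. In each of the 15 the 3 CsA libraries lie below the 3 restimulated libraries, and in *Crabp2*, *Tgm2* and *Tg* the restimulated mean is several times the resting one.

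Among the largest falls were genes outside the lists. *Crabp2* (chr3:87948666-87953376), a carrier of retinoic acid in the cell, was at 144, 149 and 172 in restimulated and 26.6, 41.1 and 37.6 in CsA libraries, beside 21.1, 20.2 and 12.9 at rest. The log2 fold change of -2.13 ± 0.22 (adjusted p = 8.95e-06) brought it most of the way to the resting level. *Tgm2* (chr2:158116402-158146436), a transglutaminase that crosslinks proteins, was at 2815, 2923 and 3269.6 without and 1296, 1372 and 1491 with CsA, and fell by 1.11 ± 0.06 (adjusted p = 1.26e-08). *Tg*, known as thyroglobulin of the thyroid, was at 1474, 1325 and 1288 without and 700.1, 664 and 561 with CsA, and fell by 1.09 ± 0.08 (adjusted p = 2.43e-07). Both stayed above their resting means of 432 and 181. Of the exon bases of *Tgm2* 21.8% are shared with other annotated genes, and of those of *Slc26a10* 17.8%.

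*Gask1a* encodes a Golgi protein and lay at 206, 213 and 172 without and 73.6, 73.9 and 65.6 with CsA, under its resting libraries at 85.4, 82.7 and 92.6, with a log2 fold change of -1.45 ± 0.12 (adjusted p = 9.02e-07). *Plek* (pleckstrin, a substrate of protein kinase C) fell by 1.36 ± 0.15 to 73.9 ± 7.12 from 192 ± 21.05, with resting iTregs at 84.1 ± 17.5 (adjusted p = 2.09e-05). *Efna5*, an ephrin ligand, fell by 1.205 ± 0.16 from 196 ± 39.4 to 83.6 ± 9.97 (adjusted p = 0.000108). *Selenbp1*, a selenium-binding protein, fell by 1.15 ± 0.15 from 151 ± 13.6 to 67.7 ± 9.35 (adjusted p = 8.58e-05), beside 97.0 ± 9.50 at rest. *Fzd7*, a Wnt receptor, fell by 1.07 ± 0.21 (adjusted p = 0.00255). *Slc26a10* was at 93.7 ± 12.5 at rest, 91.9 ± 7.83 after restimulation and 44.2 ± 9.66 with CsA, and fell by 1.06 ± 0.17 (adjusted p = 0.000694). *Dmwd* fell by 1.14 ± 0.24 from 71.5 ± 3.83 to 32.4 ± 7.68 (adjusted p = 0.00491), which was lost without CsA replicate 2 (adjusted p = 0.0551). *Ramp3*, a partner of calcitonin-family receptors, fell by 1.14 ± 0.32 from 52.3 ± 7.76 to 23.8 ± 7.65 (adjusted p = 0.0301), which was lost without any 1 library but CsA replicate 1 (adjusted p up to 0.192).

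Some genes with high counts also fell, and *Akr1c18* and *Crem* were chosen after their values were seen. *Akr1c18*, a steroid dehydrogenase expressed by activated T cells, was at 8863, 7526 and 7583 in restimulated and 4306, 4093 and 4019 in CsA libraries, a log2 fold change of -0.95 ± 0.11 (adjusted p = 2.81e-05), with resting iTregs at 4765 ± 1047. *Crem*, which encodes cAMP-responsive repressors, fell by 0.77 ± 0.07 from 2453 ± 88.5 to 1439 ± 43.6 (adjusted p = 1.91e-06).

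Surface receptors of activated T cells were called in both directions. Of 16 co-stimulatory receptors 3 fell (18.8%, beside 1.56% of all genes) and 1 rose (6.25%, beside 1.79%). *Tnfrsf9* (4-1BB) was at 5182, 5052 and 5248 in restimulated and 2752, 2821 and 2839.6 in CsA libraries, and the log2 fold change of -0.88 ± 0.07 (adjusted p = 2.43e-07) left it near the resting 2385 ± 351. *Slamf7*, a receptor of the SLAM family, was at 827, 871 and 895 without and 375, 389 and 330.3 with CsA and fell by 1.24 ± 0.10 (adjusted p = 6.07e-07), to a mean under that of resting iTregs (469). *Crtam* fell by 0.85 ± 0.22 (adjusted p = 0.0192) at a low level, 45.5 ± 2.00 and 25.3 ± 6.22, and was lost without any 1 library but CsA replicate 2 (log2 to -0.74, adjusted p up to 0.0907). *Cd226* rose by 0.60 ± 0.11 to 286 ± 13.2 from 189 ± 22.8 (adjusted p = 0.00218).

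Of 16 co-inhibitory receptors and ligands 3 fell (18.8%, beside 1.56% of all genes) and 2 rose (12.5%, beside 1.79%). *Lag3*, a receptor that binds MHC class II, was at 1494, 1263 and 1212 without and 926, 819 and 897 with CsA and fell by 0.58 ± 0.07 (adjusted p = 7.72e-05). *Cd200* fell by 0.63 ± 0.06 from 1475 ± 68.6 to 949 ± 23.7 (adjusted p = 7.08e-06), and *Pdcd1lg2* (PD-L2) fell by 0.58 ± 0.13 from 272 ± 23.5 to 181 ± 13.7 (adjusted p = 0.00792). *Havcr2* (TIM-3) was at 10.1, 11.2 and 10.9 without and 39.9, 47.2 and 36.8 with CsA, a rise of 1.84 ± 0.29 (adjusted p = 0.000553) from a low level, with resting iTregs at 12.6, 9.08 and 8.35. *Cd101* rose by 0.73 ± 0.10 from 163 ± 6.51 to 272 ± 37.1 (adjusted p = 0.000138), near its resting 323 ± 20.8. The call of *Pdcd1lg2* was lost without CsA replicate 1 (log2 -0.49) or restimulated replicate 1 (adjusted p = 0.0614).

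The MAPK feedback genes, which encode phosphatases and Sproutys that damp ERK, p38 and JNK, gave 2 falls and 1 rise among 13 tested. These are 15.4% and 7.69%, beside 1.56% and 1.79% of all genes. *Dusp16* fell by 1.03 ± 0.17 from 189.8 ± 24.9 to 92.3 ± 11.97 (adjusted p = 0.000680) and *Dusp4* fell by 0.65 ± 0.09 from 745 ± 129 to 475 ± 93.0 (adjusted p = 0.000105). *Dusp2* rose by 0.60 ± 0.14 from 83.9 ± 7.00 to 128 ± 2.99 (adjusted p = 0.00864), a call lost without CsA replicate 3 (adjusted p = 0.0821) or restimulated replicate 2 (0.0514). No gene of 14 tested in the list of anergy and diacylglycerol kinases was called, and its median was 0.03.

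Genes of naive and quiescent T cells were higher with CsA where they were called. Of 30 tested 7 rose (23.3%, beside 1.79% of all genes) and 0 fell, and the median log2 fold change of the list was 0.17. *Ms4a4b* (chr19:11443553-11467055), a membrane protein of naive T cells, had 1868, 1899.7 and 2549 normalized counts at rest, 422, 338 and 389.6 after restimulation and 1538, 1582 and 1363 with CsA. The CsA libraries were 3.90 times the restimulated ones on average, a rise of 1.96 ± 0.11 on the log2 scale (adjusted p = 7.72e-09), and remained under the resting libraries. It has close relatives among the *Ms4a4* genes, to which reads could have been assigned in part. *Txnip*, an inhibitor of thioredoxin that is high in cells at rest, was at 726, 670.1 and 706 without and 1312, 1223 and 1176 with CsA and rose by 0.82 ± 0.08 (adjusted p = 8.43e-06). *Il7r*, the receptor of the survival cytokine IL-7, was at 668, 681 and 711 without and 1109, 1038 and 1029 with CsA and rose by 0.62 ± 0.09 (adjusted p = 0.000159). *Pik3ip1*, an inhibitor of PI3K, rose by 0.72 ± 0.10 to 435 ± 40.6 (adjusted p = 0.000108). With CsA *Txnip*, *Il7r* and *Pik3ip1* stood -0.08, -0.07 and -0.07 log2 units from the resting level, none of which passed the test (adjusted p = 0.514, 0.566 and 0.637).

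*Id3*, an inhibitor of E proteins, was at 124, 113 and 119.9 without and 179.9, 202 and 214 with CsA and rose by 0.73 ± 0.10 (adjusted p = 0.000179), against 626 ± 69.8 at rest, so that it stayed -1.65 log2 units from the resting level (adjusted p = 4.11e-09). *Klf2* and *Klf3*, factors of quiescent lymphocytes, rose by 0.78 ± 0.24 and 0.70 ± 0.18 (adjusted p = 0.0402 and 0.0192) at low levels, from 21.9 ± 7.57 to 37.5 ± 7.36 and from 39.1 ± 7.82 to 64.0 ± 11.4. The call of *Klf2* was lost in the fit without replicate number (adjusted p = 0.0995) and without any 1 library but restimulated replicate 2 (log2 from 0.60, adjusted p up to 0.197), and that of *Klf3* without CsA replicate 2 or 3 or restimulated replicate 2 or 3 (log2 from 0.59, adjusted p up to 0.125). *Tcf7*, a factor of naive and memory T cells, had a log2 difference of 0.27 (adjusted p = 0.0176), under the size threshold.

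**Figure D3:**
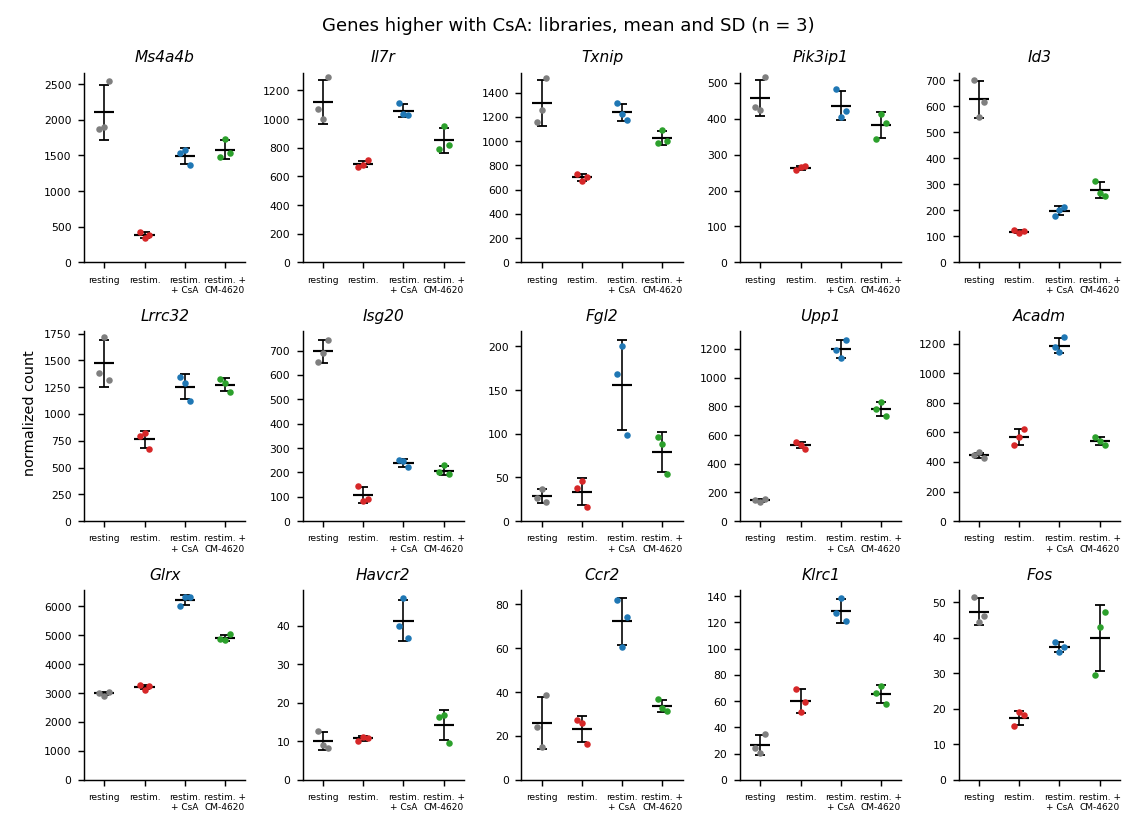
Normalized counts (vertical axes, from 0) of 15 genes that were higher with CsA, in resting, restimulated, CsA-treated and CM-4620-treated iTregs (3 libraries each, points), with the mean and SD as bars. In each of the 15 the 3 CsA libraries lie above the 3 restimulated libraries, and for *Fgl2*, *Upp1*, *Acadm*, *Glrx*, *Havcr2*, *Ccr2* and *Klrc1* they also lie above the resting libraries.

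Of 34 Treg-associated genes tested 3 rose (8.82%, beside 1.79% of all genes) and 1 fell (2.94%, beside 1.56%), and the median log2 fold change was 0.07. *Foxp3*, the lineage factor of Tregs, was at 1178, 1338 and 1324 in resting, 705, 695 and 731 in restimulated and 815, 655 and 830.0 in CsA libraries. The libraries with and without CsA overlapped, and the log2 difference of 0.10 ± 0.08 (adjusted p = 0.435) has a 95% confidence interval from -0.06 to 0.26. Against resting iTregs *Foxp3* had a log2 fold change of -0.74 with CsA (adjusted p = 1.63e-06) and of -0.85 without (adjusted p = 2.16e-07). Of its exon bases 31.5% are shared with neighbouring annotated genes. The study lists *Foxp3* among the transcripts whose fall on restimulation was blocked by its inhibitors, and also measured *Foxp3* by quantitative PCR. It further reported that CsA and CM-4620 rescued Foxp3 on restimulation by intracellular staining, which measures protein in cells and not RNA. *Il2ra* (CD25) and *Ctla4* were at 9599 ± 227 and 2181 ± 118 without and at 9502 ± 133 and 2239 ± 77.8 with CsA (adjusted p = 0.920 and 0.820). *Ikzf2* (Helios) was at 134 ± 19.9 and 131 ± 10.9 (adjusted p = 0.929), and *Ikzf4* (Eos) at 866 ± 30.3 and 907 ± 16.9 (adjusted p = 0.566).

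*Lrrc32* (GARP, the surface anchor of latent TGF-β) was one of the Treg-associated genes that rose. Its libraries were at 1381, 1718 and 1316 at rest, 798, 824 and 676 after restimulation and 1348, 1288 and 1125 with CsA, a rise of 0.71 ± 0.07 (adjusted p = 5.93e-06). *Itgae* (CD103) rose by 0.62 ± 0.11 from 142 ± 21.05 to 217 ± 19.2, above its resting 142 ± 16.1 (adjusted p = 0.000998). The third that rose was *Id3* and the one that fell *Tnfrsf9*, both given above. *Socs2* (0.43, adjusted p = 1.73e-05) and *Nt5e*, CD73 (0.40, adjusted p = 0.000445) had positive and *Ccr8* (-0.40, adjusted p = 0.000198), *Tnfrsf4* (-0.39, adjusted p = 0.0368) and *Il2rb* (-0.35, adjusted p = 0.000921) negative log2 differences under the size threshold. Of 19 genes that the study names for these groups or measured in them by quantitative PCR, and so chosen at least in part on the same samples, 2 rose (*Ms4a4b*, *Id3*) and 7 fell (*Irf4*, *Atf3*, *Fasl*, *Tbx21*, *Il12rb2*, *Gzma*, *Jak2*). That list is therefore no independent evidence of its direction (10.5% higher and 36.8% lower, beside 1.79% and 1.56% of all genes). Of the others, *Tgfbr1* had a log2 difference of 0.11 (adjusted p = 0.491), *Tgfbr2* of 0.29 (0.0229), *Sema4a* of 0.34 (0.00662) and *Il10rb* of 0.27 (0.0248).

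Interferon-linked genes were mixed. Of 31 interferon-stimulated genes 3 rose (9.68%, beside 1.79% of all genes) and 1 fell (3.23%, beside 1.56%), and the median was -0.09. *Isg20*, an exonuclease, was at 652, 692 and 745 at rest, 144, 84.0 and 91.7 after restimulation and 249, 248 and 222 with CsA, a rise of 1.201 ± 0.14 (adjusted p = 3.76e-05) that left it -1.53 log2 units from the resting level. *Ifit1bl1* was listed at 0, 3.36 and 0 without and 12.3, 8.21 and 11.99 with CsA (adjusted p = 0.00181), with 2 of 3 restimulated libraries at 0. *Xaf1*, a proapoptotic factor, rose by 0.55 ± 0.16 from 65.6 ± 12.1 to 96.1 ± 9.62 (adjusted p = 0.0355), which was lost without any 1 library but restimulated replicate 1 (log2 from 0.47, adjusted p up to 0.177). *Usp18*, which damps interferon receptor signaling, fell by 0.59 ± 0.13 from 203 ± 15.6 to 134 ± 16.4 (adjusted p = 0.00543), a call lost without CsA replicate 3 (adjusted p = 0.0528). In the list of guanylate-binding and p200 proteins, 3 of 13 rose (23.1%, beside 1.79% of all genes) and 1 fell (7.69%, beside 1.56%). *Gbp10*, a guanylate-binding protein, fell by 0.67 ± 0.16 from 387 ± 26.9 to 243 ± 17.1 (adjusted p = 0.0122), which was lost without CsA replicate 3 or restimulated replicate 1 or 2 (adjusted p up to 0.109), and 46.3% of its exon bases are shared with another gene. The genes that rose were all p200 genes, which lie in a cluster of closely related genes, whose reads could have been split among them. *Ifi209* was at 5.04, 11.2 and 18.2 without and 41.9, 49.3 and 41.6 with CsA (log2 2.01 ± 0.30, adjusted p = 0.000312), *Mndal* at 25.2, 22.4 and 29.1 without and 51.1, 71.8 and 48.8 with CsA (1.12 ± 0.19, 0.000917) and *Ifi203* at 5.04, 17.9 and 11.8 without and 29.6, 24.6 and 24.8 with CsA (1.264 ± 0.28, 0.00774). The call of *Ifi203* was lost without CsA replicate 1 (adjusted p = 0.0625) or restimulated replicate 1 (0.0550).

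Several of the largest rises went beyond the resting level. *Fgl2* (chr5:21372642-21378374), a secreted protein linked to Treg suppression, was at 26.3, 37.3 and 22.0 at rest, 38.3, 45.9 and 16.3 after restimulation and 169, 200.1 and 99.2 with CsA. No CsA library overlapped with the other 2 groups, and the rise was 2.25 ± 0.19 over restimulated (adjusted p = 8.33e-07) and 2.38 ± 0.19 over resting iTregs (adjusted p = 5.86e-08). *Upp1*, uridine phosphorylase, rose with restimulation from 145 ± 8.92 to 531 ± 23.6 and stood at 1196, 1138 and 1266 with CsA, 1.17 ± 0.08 above restimulated iTregs (adjusted p = 5.75e-08). *Acadm* (chr3:153922357-153944632), which starts the oxidation of medium-chain fatty acids, was at 514, 568 and 622 without and 1174, 1143 and 1241 with CsA, 2.09 times as high, a rise of 1.06 ± 0.08 (adjusted p = 1.66e-07), with resting iTregs at 445 ± 18.5. *Glrx* (glutaredoxin) and *Selenow* (a selenoprotein), both of redox metabolism and chosen after their values were seen, rose by 0.95 ± 0.05 and 0.94 ± 0.06 (adjusted p = 4.21e-09 and 5.75e-08). *Glrx* was at 3269, 3117 and 3246 without and 6020.2, 6304 and 6313 with CsA, with resting iTregs at 2983 ± 66.7.

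Receptors for chemokines and lipids gave 3 rises (15.8%, beside 1.79% of all genes) and 1 fall (5.26%, beside 1.56%) among 19 tested. *Ccr2* was at 27.2, 25.8 and 16.3 without and 81.8, 60.6 and 74.4 with CsA (log2 1.62 ± 0.28, adjusted p = 0.000921). It guides cells to inflamed tissue. *Ltb4r1*, the leukotriene B4 receptor, rose by 0.82 ± 0.12 from 169 ± 19.2 to 298 ± 32.0 (adjusted p = 0.000184). *Cx3cr1* fell by 0.64 ± 0.14 from 133 ± 10.2 to 86.5 ± 18.1 (adjusted p = 0.00774), and was lost without CsA replicate 2 (adjusted p = 0.0735) or restimulated replicate 1 (0.0559). The partners *Klrd1* (CD94) and *Klrc1* (NKG2A), which form an inhibitory receptor, rose together. *Klrc1* was at 69.5, 51.5 and 59.0 without and 127, 139 and 121 with CsA (log2 1.10 ± 0.19, adjusted p = 0.00128), and *Klrd1* at 48.3, 33.6 and 66.3 without and 86.9, 124 and 121 with CsA (1.181 ± 0.21, adjusted p = 0.00140). *Klrc1* is itself one of the 7 NK cell markers. Their summed level was 124 to 163 in restimulated and 215 to 247 in CsA libraries, with 4 of them at 0 in all 12 libraries. The part of NK cells in these rises was not tested.

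*Cstdc4* and *Csta2* belong to a cluster of closely related genes of cystatin-type protease inhibitors, among which reads could have been shared. *Cstdc4* was at 7.05, 11.2 and 10.9 without and 61.3, 60.6 and 44.8 with CsA (log2 2.41 ± 0.27, adjusted p = 2.09e-05). *Csta2* was at 23.2, 24.7 and 25.4 without and 53.1, 70.8 and 82.4 with CsA (log2 1.44 ± 0.21, adjusted p = 0.000271). *Rnase4* (1.53 ± 0.19, adjusted p = 6.01e-05), *Evi2a* (1.46 ± 0.17, adjusted p = 3.06e-05), *Smpdl3a* (1.14 ± 0.11, adjusted p = 5.93e-06), *B3galnt1* (1.15 ± 0.21, adjusted p = 0.00157) and *AA467197* (1.14 ± 0.08, adjusted p = 1.66e-07) were also among the 15 largest rises. With CsA *Rnase4*, a secreted ribonuclease, was back at 58.0 ± 2.60, beside 19.8 ± 4.45 after restimulation and 61.6 ± 11.7 at rest. Of its exon bases 13.4% are shared with *Ang*, and of those of *Evi2a* and *Txnip* 19.2% and 19.4% with other genes. Genes with high counts that rose, chosen after their values were seen, were *Igfbp4* and *Crip1*, from 6935 ± 809 to 10413 ± 1369 and from 5021 ± 338 to 7653 ± 181 (log2 0.58 ± 0.06 and 0.61 ± 0.06, adjusted p = 8.95e-06 and 8.39e-06).

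Metabolic and cell cycle lists had no call or 1 call each, where 1.79% of all genes were called higher and 1.56% lower. None of 25 genes of glycolysis and hypoxia passed both thresholds, but 15 of them had an adjusted p below 0.05 and a lower level with CsA and none the reverse, where 6.21% of all genes were lower and 5.82% higher by the adjusted p alone. The median of the list was -0.26, and its members ranged from -0.39 to 0.13. *Gapdh* was at 57739, 57867 and 53773 without and 48207, 43532 and 40839.6 with CsA (log2 -0.36 ± 0.07, adjusted p = 0.00239), *Pgk1* at 36344, 36563 and 37256 without and 29949, 30215 and 30575 with CsA (-0.28 ± 0.05, adjusted p = 0.00102) and *Tpi1* at 32149.6, 26779 and 28419.9 without and 22784, 22042 and 21886 with CsA (-0.38 ± 0.08, adjusted p = 0.00295). In each of these glycolytic enzymes, chosen after their values were seen, the CsA libraries lay below the restimulated ones, by less than the size threshold. Of 24 genes of cholesterol and fatty acid synthesis *Scd1*, a fatty acid desaturase, fell by 0.60 ± 0.08 from 549 ± 27.5 to 362 ± 19.2 (adjusted p = 0.000153). By the adjusted p alone 7 of the 24 were lower and 2 higher, beside 6.21% and 5.82% of all genes, and the median of the list was -0.12.

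No gene was called among 30 S phase and 30 mitosis genes, with medians of -0.07 and 0.04. *Mki67*, a marker of cycling cells, was at 2889 ± 103 and 2522 ± 34.9 (adjusted p = 0.0752), and *Mcm5*, of the replication helicase, at 5745 ± 78.9 and 5447 ± 321 (adjusted p = 0.374). Among 19 genes of the BCL2 family and death receptors and 22 chaperones there was no call. *Ddit3* (CHOP) was the call of 21 ATF4-linked genes, with a log2 fold change of 0.56 ± 0.11 (adjusted p = 0.00259) and, under the size threshold, 0.48 without restimulated replicate 3, and *Plk2* that of 13 p53 targets, which fell by 0.73 ± 0.08 from 593 ± 34.8 to 357 ± 29.6 (adjusted p = 1.59e-05). The plot of the gene lists shows the shares of the lists side by side, with the dotted lines at the shares of all genes (1.79% higher and 1.56% lower).

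**Figure D4:**
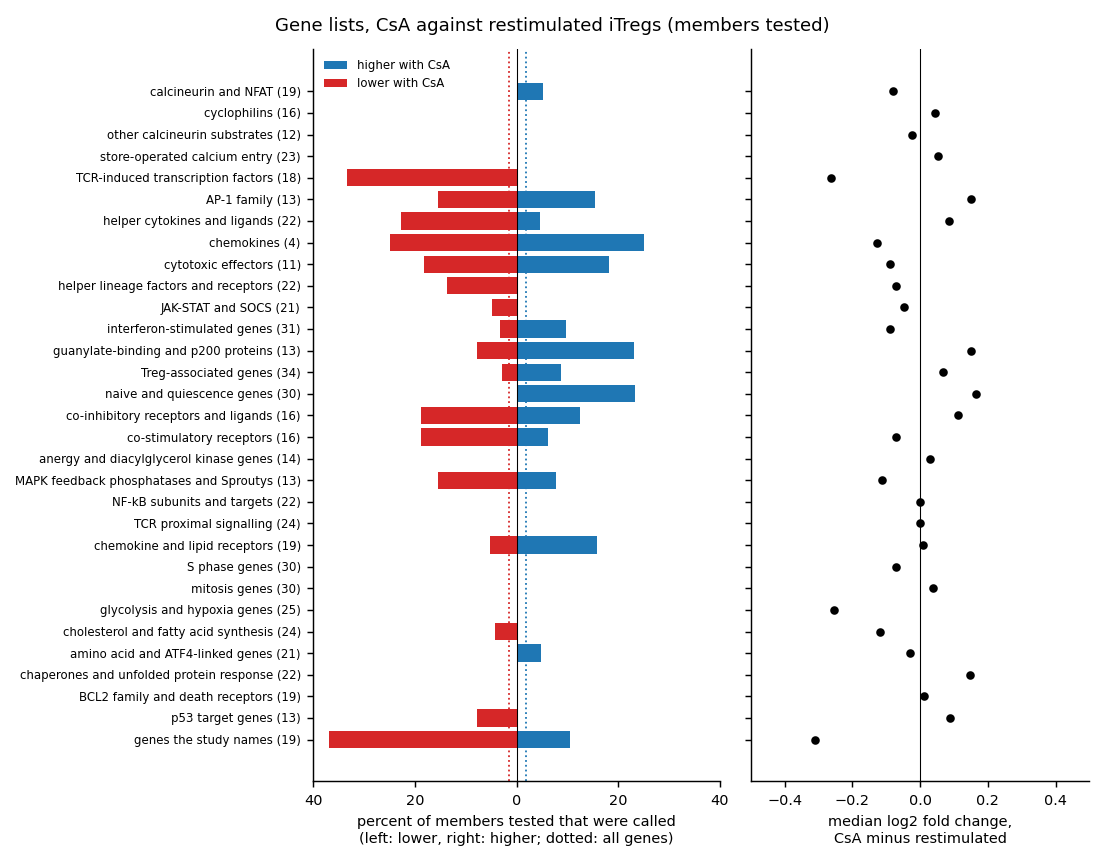
Left, percent of the tested members of each gene list (number tested in brackets) called lower (red, to the left) or higher (blue, to the right) with CsA, beside the shares of all genes tested (dotted, 1.56% lower and 1.79% higher). The cell type marker lists are not plotted. Right, the median log2 fold change of each list, which among the lists plotted lies lowest for the genes the study names and for TCR-induced transcription factors and highest for naive and quiescence genes.

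Against the iTregs restimulated with CM-4620, 51 of the 11105 genes (0.459%) differed in the CsA libraries, 39 higher (0.351%) and 12 lower (0.108%). With only these groups in the fit the count was 81, and without CsA replicate 2 it was 32. *Lmna*, which encodes lamin A and C of the nuclear envelope, was at 309, 299.7 and 329 with CsA and 126, 104 and 125 with CM-4620, a difference of 1.39 ± 0.12 (adjusted p = 3.70e-06), with restimulated iTregs in between at 189 ± 10.5. *Acadm* was at 1186 ± 50.0 and 543 ± 26.7 (1.13 ± 0.08, adjusted p = 2.79e-07) and *Havcr2* at 41.3 ± 5.36 and 14.2 ± 3.97 (1.503 ± 0.29, adjusted p = 0.0126). The CsA libraries of these genes lay above those of all 3 other groups. *Fam114a1* differed by 1.03 ± 0.23 (adjusted p = 0.0305), *Klrc1* by 0.97 ± 0.19 (adjusted p = 0.0139), and *Upp1* by 0.62 ± 0.08 (adjusted p = 0.000232), from 781 ± 49.6 with CM-4620. *Fgl2* was at 169, 200.1 and 99.2 with CsA and 95.9, 88.0 and 53.5 with CM-4620 (0.95 ± 0.19, adjusted p = 0.0126), a call lost in the fit without replicate number (adjusted p = 0.308) and without any 1 library but CM-4620 replicate 1 (up to 0.111).

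In *Cd24a*, *Il10*, *Gzma* and *Bhlhe40* the CM-4620 libraries lay farther from the restimulated ones than the CsA libraries did. *Cd24a*, a surface glycoprotein of early lymphocytes, was at 1044, 1066 and 1136 after restimulation, 972, 977 and 1010.0 with CsA and 421, 438 and 487 with CM-4620, and differed by 1.14 ± 0.07 between the inhibitors (adjusted p = 6.49e-08). *Il10* was at 113, 138 and 103 with CsA and 61.2, 65.1 and 52.6 with CM-4620 (0.97 ± 0.16, adjusted p = 0.00323). *Gzma* was at 1432 ± 29.2 and 995 ± 10.6, a difference of 0.53 ± 0.05 (adjusted p = 2.31e-05). *Bhlhe40* was at 2618 ± 257 and 1801 ± 152 (0.54 ± 0.06, adjusted p = 0.000102), and without CsA replicate 3 its difference fell to 0.497, under the size threshold. Lower with CsA were *Cd74*, the invariant chain of MHC class II, at 425, 394 and 374 against 814, 717 and 709 (-0.91 ± 0.12, adjusted p = 0.000364), *Gask1a* (-0.75 ± 0.12, adjusted p = 0.00264), *Ptges3l* (-0.72 ± 0.16, adjusted p = 0.0338), *Trat1*, an adaptor of the TCR (-0.63 ± 0.11, adjusted p = 0.00336), and the mitochondrial transcript *mt-Co3* (-0.63 ± 0.14, adjusted p = 0.0316). *Cd74* is also on the list of dendritic cell markers, whose summed level was 402 to 472 in CsA and 772 to 874 in CM-4620 libraries, mostly through this gene, while *Clec9a* and *Siglech* were at 0 in all 12. The part of dendritic cells in this result was not tested. Single libraries decided several of these calls. That of *Havcr2* was lost without any 1 CsA library or CM-4620 replicate 3 (adjusted p up to 0.114), that of *Klrc1* without any 1 CsA library or CM-4620 replicate 1 or 3 (up to 0.147), that of *Il10* without CsA replicate 2 (0.0560) and that of *Trat1* without CsA replicate 3 (0.0504). The calls of *Fam114a1* and *mt-Co3* were lost without any 1 library but CM-4620 replicate 1 (up to 0.196 and 0.199) and that of *Ptges3l* without any 1 of the 6 (up to 0.192). DESeq2 also ended the call of *mt-Co3* (adjusted p = 0.148). All transcripts of the mitochondrial genome took 2.11 to 2.24% of the signal in CM-4620 and 1.56 to 1.92% in CsA libraries. The part of this share in the *mt-Co3* difference was not tested. The other genes described here gave no call between the inhibitors, which does not show that they were equal. *Ms4a4b* was at 1494 ± 115 and 1584 ± 129.9 (-0.08 ± 0.11, adjusted p = 0.775), *Irf4* at 3857 ± 131 and 4180.4 ± 77.9 (-0.12 ± 0.07, adjusted p = 0.462) and *Slamf7* at 365 ± 30.7 and 358 ± 24.2 (0.03 ± 0.10, adjusted p = 0.942).

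**Figure D5:**
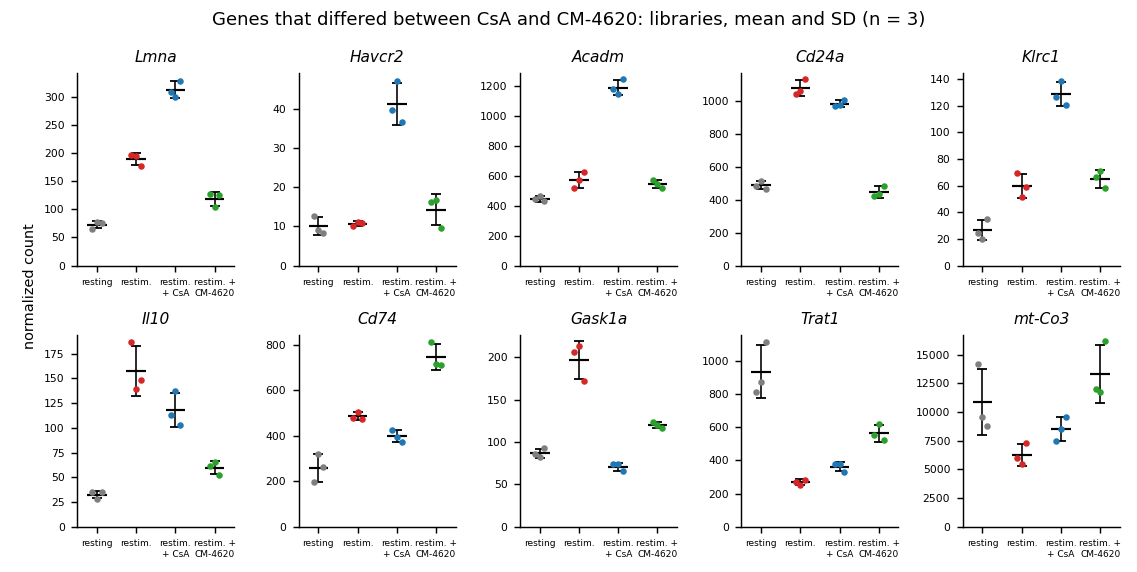
Normalized counts (vertical axes, from 0) in resting, restimulated, CsA-treated and CM-4620-treated iTregs of 10 genes called between CsA and CM-4620 (3 libraries each, points), with the mean and SD as bars. *Lmna*, *Havcr2*, *Acadm* and *Klrc1* are highest with CsA, *Cd24a* and *Il10* are lower with CM-4620 than with CsA, and *Cd74*, *Trat1* and *mt-Co3* are higher with CM-4620 than with CsA.

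CsA-treated iTregs also stayed apart from resting iTregs. Between them 1143 genes (10.3%) differed, 604 higher (5.44%) and 539 lower (4.85%), beside 1500 genes (13.5%), 764 higher (6.88%) and 736 lower (6.63%), between restimulated and resting iTregs in the same fit. Both counts use the same resting libraries and the second shares the restimulated libraries with the main comparison, so they are given side by side and their overlap is not. For single genes the remaining distance was unequal. *Il12rb2* lay 2.01 log2 units above rest with CsA and 2.56 without, *Tgm2* 1.68 and 2.79, *Il21* 1.64 and 2.00, and *Fasl* 0.67 and 1.87. *Tnfrsf9* lay 0.24 and 1.12, *Ikzf3* -0.05 and 0.71, and *Plek* -0.17 and 1.19. On the lower side *Isg20* lay -1.53 with and -2.74 without CsA, *Id3* -1.65 and -2.38, *Lrrc32* -0.23 and -0.94, and *Foxp3* -0.74 and -0.85.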

How the data were processed

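Smart-seq2 RNA-seq libraries of iTregs were analysed, 3 resting, 3 restimulated, 3 restimulated with CsA and 3 restimulated with CM-4620. By the study's methods and processing notes the authors trimmed reads with cutadapt 1.18, aligned them to the mouse genome (GRCm38/mm10) with STAR 2.5.3, counted genes with RSEM 1.3.0 and normalized with DESeq2 1.26. The deposited values are a signal of gene counts divided by 1 size factor per library, set by the authors over all 24 libraries. Whole reads, within 0.01 of a read, were recovered from every deposited value (100%). Expected counts of RSEM appear as rounded to whole reads, and reads shared by related genes were split by its model. The library protocol keeps no strand.

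Groups were read from the sample titles, and no column was left unmapped (0). A gene was kept where 3 or more of the 12 iTreg libraries reached 10 normalized counts. Values were tested as log2(normalized count + 1) in limma 3.58.1 (R 4.3.3), with a mean-variance trend, the 12 libraries in 1 fit, the replicate number as a block, and Benjamini-Hochberg adjustment over the 11105 genes kept. The pseudocount of 1 understates fold changes of low genes. A call needed an adjusted p under 0.05 and a log2 fold change larger than 0.5 in either direction. The script was tested on simulated data. Replicates differed by more than counting noise. Count tests were added after seeing the data, with edgeR 4.0.16 and DESeq2 1.42.0 on the recovered reads, which called 383 and 309 genes between CsA and restimulated iTregs. Other alternatives were no block, only the groups compared, other size factors, quantile normalization, other pseudocounts, filters and thresholds, and leaving out each library.

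The comparison, the 38 gene lists and the tests were chosen with earlier results of these data known, so the lists are described and not tested. Named were the 15 largest rises and falls among called genes whose libraries did not overlap and whose higher mean was at least 50 normalized counts, the genes the study names, called members of the lists with uncalled members of 6 of them, the 5 largest differences from CM-4620 in each direction, and others said to be chosen after their values were seen. Where the text gives other uncalled members of a list, these too were chosen after their values were seen. A few genes that these rules or lists hold are not reported here. Gene positions are from GENCODE M21 (GRCm38), in which 99.4% of tested names were found, and promoters from RefSeq (GRCm38.p6), which gave windows for 8850 tested genes. Python 3.11.15 and matplotlib 3.10.9 drew the figures.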

Additional observations from a re-analysis of the deposited data

How the results depend on the processing

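The count of 372 genes between CsA and restimulated iTregs lay between 309 and 451 under quantile normalization, other size factors, a pseudocount of 0.1 or 5, without a filter, with only the groups compared, and by edgeR and DESeq2. It was 230 under a filter of 100 normalized counts, 1336 by the adjusted p alone and 90 above a log2 fold change of 1, and 280 to 320 when 1 library was left out. The count of 51 genes between CsA and CM-4620 was 81 with only those groups in the fit, 150 by the adjusted p alone, 7 above a log2 fold change of 1, and 32 to 50 when 1 library was left out (32 without CsA replicate 2). Between CsA-treated and resting iTregs the 1143 genes became 696 under the filter of 100, 3332 by the adjusted p alone, 306 above a log2 fold change of 1, and 949 to 1284 without 1 library. Between restimulated and resting iTregs the 1500 genes became 911, 3805, 489 and 1367 to 1586 in the same order. These stricter and looser rules count fewer or more genes by construction.

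Of 92 named genes called between CsA and restimulated iTregs none changed sign in any alternative, and 64 were called in every fit that left out a library. These genes had been picked as called on the same libraries, so that a kept sign was nearly fixed in advance and is no independent support. In the fit without the filter on low values the calls of *Ramp3*, *Nr4a3*, *Il9*, *Tnfsf4*, *Gzmc*, *Xaf1*, *Klf2* and *Crtam* were lost. DESeq2 ended those of *Tnfsf4*, *Gzma*, *Gzmc*, *Xaf1*, *Klf2* and *Crtam*, edgeR that of *Klf2*, and a pseudocount of 0.1 that of *Il9*. The cause was not tested.

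Nothing in the labels says that a replicate number marks a shared culture or day. Deviations of same-numbered restimulated and CsA libraries from their group means correlated at 0.136, 0.0986 and 0.302, so that not every pair was over 0.1, although each library correlated best with its own number across these groups, a hint from the data and not from the design. Without the replicate block 324 genes were called (174 higher and 150 lower), 323 of them among the 372, and the calls of *Tnfsf4*, *Tbx21* and *Klf2* were lost. For the other comparisons the counts without the block were 40 between CsA and CM-4620, 1047 between CsA-treated and resting and 1425 between restimulated and resting iTregs. Between CsA and CM-4620 the calls of *Fgl2*, *Fam114a1* and *mt-Co3* were lost without it. The size of a change in genes near 3 reads, such as *Ifng* with CsA, is limited by depth.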
